A study of Mus musculus with 6 samples.

Results

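The mir-148 and mir-152 family of the mouse consists of mir-148a, mir-148b and mir-152, and these 3 entries were taken by name from the 1006 miRNA precursor entries measured in the study. They were chosen by their shared seed together with their measured levels in the 4 conditions, so that these levels are given as a description. A miRNA guides the silencing complex to mRNAs chiefly through its seed, bases 2 to 8 from the 5′ end, and members with the same seed can bind many of the same targets. The family is known for repressing the DNA methyltransferase Dnmt1, and mir-148a has been studied in osteoclast formation. The question here was which member carried the seed in bone cells and in vesicles from myoblasts.

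Small RNA was sequenced in 6 libraries. Mouse primary osteoblasts (OB) and mouse primary bone marrow cells (BM) gave 1 library each, and 2 came from each kind of vesicle, termed Myo-EVs and FFSS-Myo-EVs. Myo-EVs are extracellular vesicles pelleted from the medium of C2C12 cells, a mouse myoblast line, grown in serum depleted of its own vesicles. FFSS-Myo-EVs came from C2C12 cells exposed to fluid flow shear stress (FFSS) on an orbital shaker, and the labels call the other 4 libraries controls for stress. The labels give all 6 libraries the same mouse background, 18.75% 129/SvJ and the other 81.25% C57BL/6J, even where the vesicles came from the cell line, and an age of 8 to 10 weeks for OB and BM. The methods describe osteoblasts grown from the calvariae of pooled neonatal mice, which differs from that age. For osteoclast cultures they describe bone marrow cells from the tibiae of 1 male mouse aged 8 weeks. The paper's results describe bone marrow cells as a mixture of cell types. The growth text of the labels is the same for every library and names vitamin D and dexamethasone but not FFSS. C2C12 cells themselves were not among the libraries, so the vesicles could not be set against the cells that released them, and material (cells or vesicles) and cell type cannot be told apart in any comparison of vesicles with OB or BM.

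Total counts were between 2414132 and 6092460 per library. The levels below are the authors' normalized expression values, which are the counts of a library times 1 constant between 0.397 and 1.20. The labelled cell types were checked against lists of marker miRNAs. The 9 haematopoietic entries, mir-223 and mir-142a among them, had a sum of 35304.8 in BM and of 887.5 in OB, and in the vesicle libraries their sum was between 237.9 and 319.9. The 7 mesenchymal entries had a sum of 22199.7 in BM, 536441 in OB and 335152 to 437744 in the vesicles. Most of the vesicle sum was mir-143, at 274482 to 372549 against 269506 in OB. The 3 mir-199 entries were between 8308.7 and 16349.7 in the vesicles and between 66862 and 88096 in OB. In OB the copies mir-199a-1 and mir-199a-2 were at 87356 and 88096. Reads that match both copies may have been counted at each, and the mesenchymal sums would then hold them repeatedly. Of the others, mir-145a and mir-145b were higher in the vesicles than in OB, and mir-214 was lower. The 6 muscle entries had a sum of 71.9 in BM, 118.9 in OB and 2052.9 to 2641.9 in the vesicles. Most of the latter was mir-206, at 1968.5 to 2610.0, while the 3 mir-133 entries were between 4.4 and 45.2 and the 2 copies of mir-1a between 0 and 6.0, with mir-1a-1 at 0 counts in all 4 vesicle libraries. With 1 library each, OB and BM have no replicate error. For them 95% intervals by the exact Clopper-Pearson method are given. These hold for counting error alone, since no molecular identifiers were used and PCR copies of a molecule are counted again. No source states that the vesicle libraries came from separate cultures, so p-values measure only the spread between these libraries.

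The mature 3p sequences show what the members share and where they differ. They are taken from RefSeq (GRCm38.p6), all 3 members were found there, and the seed is in capitals.
miR-148a-3p: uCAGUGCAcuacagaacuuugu
miR-148b-3p: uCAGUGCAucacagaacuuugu
miR-152-3p: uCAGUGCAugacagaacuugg

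The seed CAGUGCA pairs with the letters UGCACUG in a target. Among 1738 mature mouse miRNAs in the RefSeq table, only these 3 have it at bases 2 to 8. A further 7, such as miR-130a-3p, miR-130b-3p and miR-301a-3p, hold the same letters at bases 1 to 7, that is, shifted by 1 base. Counted from 1 at the 5′ end, miR-148a-3p and miR-148b-3p differ by C9U and U10C. The differences of miR-152-3p from miR-148a-3p are C9U, U10G and U20G, and those from miR-148b-3p are C10G and U20G. Besides, miR-152-3p is 21 bases long and the others are 22.

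The counts belong to whole precursors and do not separate the 3p from the 5p arm, so the full hairpins are shown with the 3p arm in capitals.
mir-148a: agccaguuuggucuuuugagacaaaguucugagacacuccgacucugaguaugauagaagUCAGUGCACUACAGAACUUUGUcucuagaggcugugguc
mir-148b: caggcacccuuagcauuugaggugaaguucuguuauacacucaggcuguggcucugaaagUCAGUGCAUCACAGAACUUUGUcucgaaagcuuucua
mir-152: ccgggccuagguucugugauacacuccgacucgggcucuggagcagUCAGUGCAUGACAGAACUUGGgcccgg

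The 5p arms carry other seeds, AAGUUCU in miR-148a-5p and miR-148b-5p and AGGUUCU in miR-152-5p. A count of an entry can therefore be read as a count of the shared seed only as far as its reads came from the 3p arm. The longest run of bases common to 2 hairpins was 15, between mir-148a and mir-148b, and it was 12 between mir-148a and mir-152. Among the 3 members, a longer read matched without mismatches thus belongs to 1. The number of mismatches that the authors allowed is not given in the sources used here. With mismatches the 2 bases between miR-148a-3p and miR-148b-3p could be crossed, and so could the 2 between miR-148b-3p and miR-152-3p. Of the latter, U20G lies near the 3′ end, so a read that stops before base 20 differs by C10G alone. The 3 bases between miR-148a-3p and miR-152-3p, which include U20G as well, could also be crossed if enough mismatches were allowed.

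The 3 genes lie apart in the genome. On GRCm38, mir-148a is at chr6:51269812-51269910 on the minus strand and overlaps no other annotated gene (GENCODE M21), the nearest protein-coding gene being Nfe2l3 at a distance of 162760 bases. The entry mir-148b is at chr15:103285125-103285221 on the plus strand, within an intron of Copz1. The entry mir-152 is at chr11:96850393-96850465 on the plus strand, within an intron of Copz2. Copz1 and Copz2 encode related zeta subunits of the coatomer, the coat of vesicles that move between the Golgi and the endoplasmic reticulum, and both are transcribed in the direction of their miRNA. The mRNAs of the host genes were not measured.

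In OB and BM the seed was carried mainly by mir-148a, whereas in the vesicles it was carried mainly by mir-152. The share of mir-148a in the family's counts was 80.2% in OB (95% interval 80.0 to 80.3) and 75.7% in BM (75.5 to 75.9). In the vesicles it was 0.756% and 0.851% for Myo-EVs, against 1.33% and 1.51% for FFSS-Myo-EVs. Hence the most abundant member of both cell samples was the least abundant one in every vesicle library.

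The share of mir-152 was 16.3% in OB and 4.57% in BM. For Myo-EVs it was 78.5% and 79.1%, and for FFSS-Myo-EVs 78.7% and 79.2%, a mean of 78.8% ± 0.43 (SD, n = 2) and 78.9% ± 0.41 (SD, n = 2), respectively. The 2 vesicle groups overlapped in this share. The shares are taken within a library and do not depend on the scaling between libraries.

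The remaining member, mir-148b, held 3.51% of the family's counts in OB and 19.7% in BM. Its share was 20.8% and 20.1% for Myo-EVs, against 20.0% and 19.3% for FFSS-Myo-EVs. It was second in BM and in all 4 vesicle libraries, at nearly the same share, and last in OB.

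**Figure D1:**
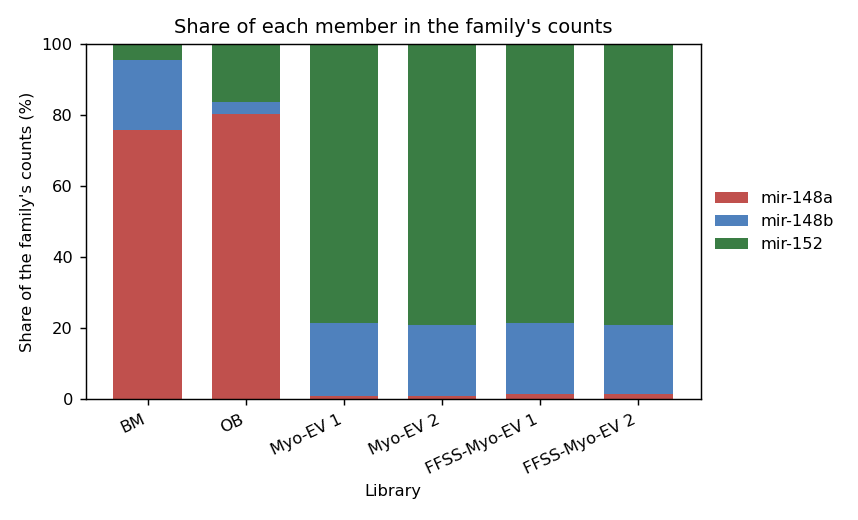
Share of mir-148a, mir-148b and mir-152 in the family's counts (%, stacked to 100) in each of the 6 libraries. The bars of BM and OB are mostly mir-148a (75.7% and 80.2%) and the 4 vesicle bars are mostly mir-152 (78.5% to 79.2%).

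The ratio of mir-152 to mir-148a counts within a library was 0.204 in OB and 0.0603 in BM. For Myo-EVs it was 104 and 92.9, and for FFSS-Myo-EVs 59.0 and 52.6, so that the 2 vesicle groups did not overlap. An exact permutation of 2 against 2 libraries (two-sided) cannot give a p below 0.333, so this separation is only a description. The ratio of mir-152 to mir-148b was 4.65 in OB and 0.232 in BM and lay between 3.78 and 4.11 in the vesicles. In the balance of mir-152 and mir-148b alone, the vesicles were therefore near OB and far from BM, and the vesicle groups overlapped.

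As a level, mir-148a had the widest range of the 3 members. Its normalized expression value was 202104 in OB (95% interval 201473 to 202736, 365964 counts) and 44559 in BM (44301 to 44818, 112188 counts). For Myo-EVs the value was 60.2 and 86.2, from 60 and 72 counts, and for FFSS-Myo-EVs it was 146.4 and 173.9, from 147 and 157 counts. All 4 vesicle libraries were far below both cells, and the Myo-EV libraries were the lowest. Among the 1006 entries, mir-148a ranked 3 in OB and 7 in BM but between 177 and 222 in the vesicles. It made up 7.06% of all counts in OB and 1.84% in BM.

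The order of mir-148a was OB, BM, FFSS-Myo-EVs and Myo-EVs. The OB level was 4.54 times the BM level. BM was 278 times the mean of FFSS-Myo-EVs (256 to 304 over the 2 libraries) and 608 times that of Myo-EVs (517 to 740). OB was 1262 times FFSS-Myo-EVs (1162 to 1380) and 2760 times Myo-EVs (2344 to 3356). These differences are larger than the counting error and than the spread between the vesicle libraries, and they could not be set against replicates of OB or BM. A level in bulk RNA cannot tell fewer cells of a type from less of the miRNA per cell.

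The level of mir-148b varied least. In BM it was 11608 (95% interval 11476 to 11742) and in OB 8845.9 (8710 to 8984), a ratio of OB to BM of 0.762. For Myo-EVs the value was 1653.3 and 2032.5, and for FFSS-Myo-EVs it was 2198.6 and 2225.0. The mean of Myo-EVs was 0.159 of the BM level and 0.208 of the OB level. For FFSS-Myo-EVs these ratios were 0.191 to BM and 0.250 to OB. The order was thus BM, OB, FFSS-Myo-EVs and Myo-EVs, with both cells above all vesicle libraries. Its rank was 33 in BM, 39 in OB and 88 to 97 in the vesicles.

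The level of mir-152 was 41176.3 in OB (40884 to 41471) and 2687.7 in BM (2624 to 2753), a ratio of 15.3 between the cells. The vesicle values lay between these, at 6248.8 and 8010.1 for Myo-EVs and at 8640.1 and 9150.3 for FFSS-Myo-EVs. The mean of Myo-EVs was 2.65 times the BM level (2.32 to 2.98 over the 2 libraries) and 0.173 of the OB level. For FFSS-Myo-EVs the ratio to BM was 3.31 (3.21 to 3.40) and that to OB was 0.216. It was the only member of the family with a higher level in vesicles than in BM, and this held as well with total-count, TMM and median-of-ratios scaling of the 6 libraries. Its rank was 14 in OB, 69 in BM and 36 to 47 in the vesicles.

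**Figure D2:**
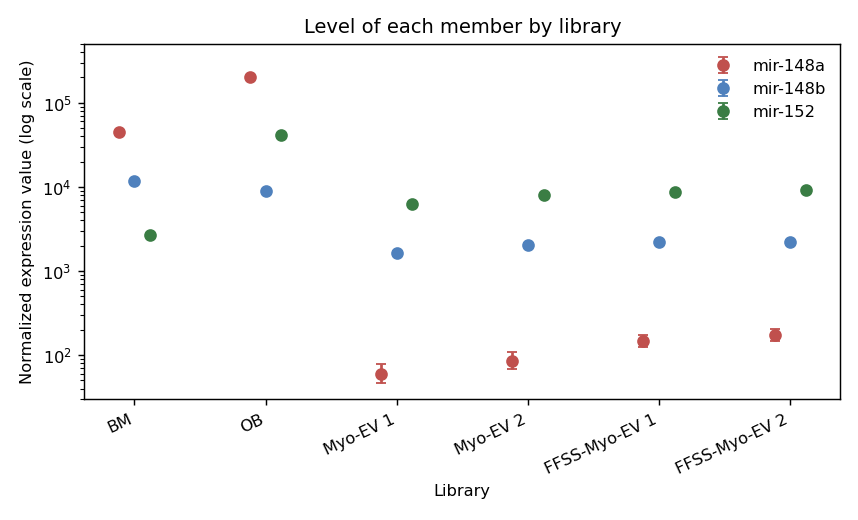
Normalized expression value (log scale) of mir-148a, mir-148b and mir-152 in each of the 6 libraries, with exact 95% intervals of the counts as bars. The points of mir-148a fall from 202104 in OB and 44559 in BM to between 60.2 and 173.9 in the vesicles, while those of mir-152 stay between 2687.7 and 41176.3.

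The sum of the 3 members gives the family's level relative to the library and not an amount per cell or vesicle. It was 252126 in OB, 8.81% of all counts, and 58854.7 in BM, 2.43% of all counts. For Myo-EVs it was 7962.3 and 10128.8, and for FFSS-Myo-EVs 10985.1 and 11549.2, between 0.276% and 0.393% of all counts. The difference between the cell and the mean of the vesicles came mostly from mir-148a, which made up 91.3% of it for BM and 83.5% for OB. Without mir-148a, the sum was 14295.8 in BM and 50022.4 in OB, against 7902 to 11375 in the vesicles. The vesicle mean of that remainder was 0.702 times BM and 0.201 times OB.

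The distance of mir-148a between vesicles and cells was set against the other entries at 1000 or more in the cell. Of 127 such entries in OB, 26 had a lower ratio of vesicle mean to OB than mir-148a, at 0.000577, and the median ratio was 0.733. Of these 26 entries, 25 lie within chr12:109585789-109743236 (GRCm38), in the imprinted Dlk1-Dio3 locus, which holds a large cluster of miRNA genes, and the other is mir-335 on chromosome 6. These positions were looked up after the values were seen. Among the 26, 6 had 0 counts in all 4 vesicle libraries, and the most abundant in OB was mir-127 at 73368.6, named here after its values were seen. Only mir-21a and mir-143 had a higher level in OB than mir-148a, and their ratios were 1.01 and 1.19. Of 103 such entries in BM, 4 were below mir-148a, namely mir-340, mir-223, mir-142b and mir-142a, and the median ratio was 0.496. The ratio of mir-148a to BM was 0.00262. Counted from the lowest ratio to OB, mir-148b and mir-152 stood at 45 and 44 of 127. For BM, mir-148b stood at 23 of 103 with a ratio of 0.175, below the median, and mir-152 at 85 with a ratio of 2.98.

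**Figure D3:**
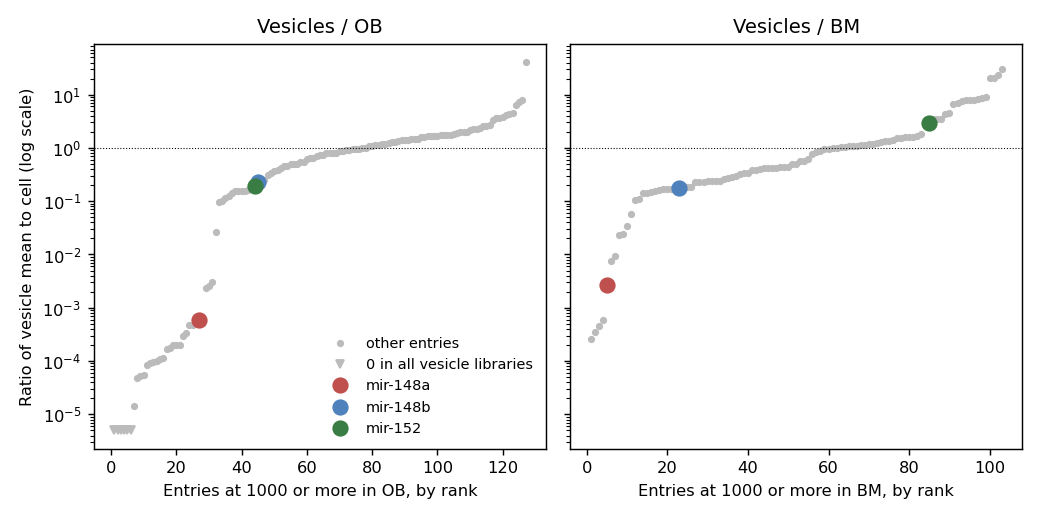
Ratio of the vesicle mean to OB (left, 127 entries) and to BM (right, 103 entries) on a log scale, for entries at 1000 or more in that cell, ordered from the lowest ratio. Triangles mark entries with 0 counts in all vesicle libraries and are set at the foot of the axis. The point of mir-148a lies in the low tail of both panels, at ranks 27 and 5, while that of mir-152 lies above 1 only for BM.

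Each member resembled different entries in its profile over the 4 conditions. Likeness was the root mean square difference of the log2 levels (with 1 added) after each profile was centred, over 253 entries with a mean of at least 100. The nearest to mir-152 were mir-296, mir-542 and mir-100, with differences of 0.44 to 0.47 on the log2 scale. For mir-148b they were mir-192, mir-27b and mir-23b, with differences of 0.22 to 0.30. No entry came as near to mir-148a, for which the closest were mir-676, mir-455 and mir-340 at 1.19 to 1.94. Of these, mir-676 was at 0 in both vesicle groups, so its vesicle points came from the added 1. The level of mir-340 was 16714.6 in BM and 1788.2 in OB, the reverse of the order of mir-148a in the cells. The family members were not near each other. The entry mir-148b came 38 in order of likeness to mir-148a and 95 to mir-152, and mir-152 came 107 in order of likeness to mir-148a. The profile has 4 points, of which 2 are vesicle means, so these values only describe the libraries.

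The change of the leading member was set beside 16 other miRNA families with a common seed. In 9 of the 16, the most abundant member was not the same in BM, OB and the vesicles, among them mir-23a/mir-23b, mir-99a/mir-99b/mir-100 and mir-19a/mir-19b. In the vesicles the leaders of these held 54.9%, 83.2% and 50.2% of the counts, so the first and the last were near-even splits. By this count, which takes no account of the size of the lead, a change of leader was common among the families listed. The size of the shift, a measure added after the values were seen, differed more. Between OB and the vesicles, 79.0 percentage points of the counts of mir-148a, mir-148b and mir-152 lay on another member, against 0.110 to 59.4 and a median of 15.0 in the other 16. Between BM and the vesicles the shift was 74.6 percentage points, which was second to the 79.4 of mir-34a/mir-34b/mir-34c. Between OB and BM it was 16.2 and ranked 7 of 17. The family had been chosen with its levels in these libraries known, so a high rank of its shift is not independent evidence. Copies of a precursor were summed under 1 name in the other families, and reads that match several copies may have been counted at each of them.

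**Figure D4:**
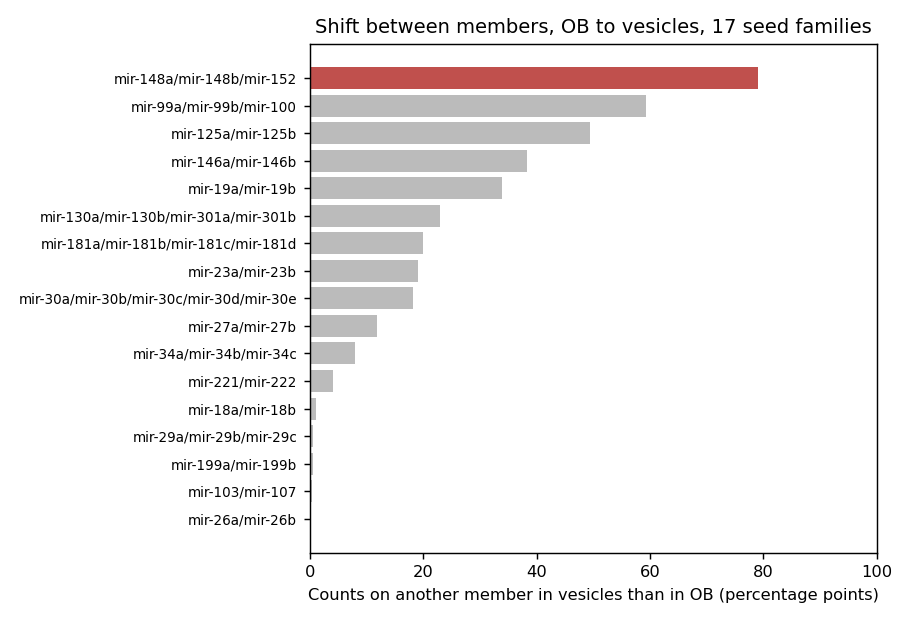
Percentage points of a family's counts that lay on another member in the vesicles (mean of 4 libraries) than in OB, for 17 seed families, with mir-148a/mir-148b/mir-152 in red. The red bar reaches 79.0, and the next is mir-99a/mir-99b/mir-100 at 59.4.

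Finally, FFSS-Myo-EVs were compared with Myo-EVs. In edgeR's quasi-likelihood test on the counts of the 4 vesicle libraries, 12.1% of the 354 entries tested were called higher and 18.4% lower at an adjusted p below 0.05 (Benjamini-Hochberg). Of the family, 1 of 3 members was called higher and 0 were called lower. The called member was mir-148a, the least abundant of them in vesicles. In the deposited normalized values the 2 groups did not overlap for any of the 3 members, and FFSS-Myo-EVs were the higher ones, as was the case for 36.7% of the entries tested. After TMM scaling this also held for all 3, against 26.0% of the entries, but narrowly for mir-148b, whose lowest FFSS-Myo-EV value was 701 and whose highest Myo-EV value was 695 per 1000000 scaled counts.

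The mean level of mir-148a was 73.2 ± 18.4 (SD, n = 2) in Myo-EVs and 160 ± 19.4 (SD, n = 2) in FFSS-Myo-EVs. In edgeR's quasi-likelihood test its log2 fold change was 1.01 (standard error 0.26) at an adjusted p = 0.000838, that is, 2.02-fold with a 95% interval from 1.42 to 2.88. The call rested on 60 to 157 counts per library. As the members were chosen with their levels in these libraries known, the call is not independent evidence of an effect of FFSS. The adjusted p in edgeR was 0.0705 when replicate 1 of FFSS-Myo-EVs was left out, at a log2 fold change of 1.08, and 0.0884 when replicate 2 was left out, at 0.96. It was below 0.05 without either Myo-EV library. Each of these fits has 1 library in an arm, which is assumed to vary like the 2 of the other group. Over all 14 alternatives the adjusted p lay between 0.000117 and 0.0884. As a description of the same counts that needs no scaling between libraries, mir-148a was 3.64% and 4.24% of mir-148b for Myo-EVs, against 6.66% and 7.81% for FFSS-Myo-EVs.

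Some miRNAs of blood and liver moved in the same direction at low counts. The erythroid miRNA mir-451a rose from 3.0 and 4.8 for Myo-EVs to 25.9 and 17.7 for FFSS-Myo-EVs, and the hepatic miRNA mir-122 rose from 6.0 and 4.8 to 17.9 and 15.5. Both were called higher in the same edgeR test, with log2 fold changes of 2.36 and 1.47 (adjusted p = 6.79e-05 and 0.0132, standard errors 0.52 and 0.50). They are 2 of the 4 entries on the list of serum miRNAs, and the other 2, mir-486a and mir-486b, were not called. The list summed to 164.6 and 234.8 for Myo-EVs, against 253.0 and 235.9 for FFSS-Myo-EVs. Of the 9 haematopoietic entries 4 were tested and only mir-451a was called. The 5 that were not tested were at 8.9 or below in every vesicle library, and mir-223 was at 1.0 and 0 for Myo-EVs and at 7.0 and 5.5 for FFSS-Myo-EVs. Of the 7 mesenchymal entries, 1 was called higher (mir-199b). Of the 6 muscle entries, 4 were tested and 3 were called lower, namely mir-133b and both copies of mir-133a. These counts are to be read beside the 12.1% called higher and the 18.4% called lower among all entries tested. Reads that match several entries may have been counted at each of them. Hence mir-486a and mir-486b may hold the same reads, as may both copies of mir-133a, and such entries are not independent. The part of serum or blood cell RNA in the rise of mir-148a was not tested.

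The mean of mir-152 was 7129.4 ± 1245.4 (SD, n = 2) in Myo-EVs and 8895.2 ± 360.8 (SD, n = 2) in FFSS-Myo-EVs. In edgeR's quasi-likelihood test its log2 fold change was 0.20 (standard error 0.14) at an adjusted p = 0.309, and the 95% interval of the fold change ran from 0.95 to 1.39. The study had listed mir-152 by its level and its ratio on this contrast, so its values are not independent evidence. That ratio, 1.248 in the deposited values and listed as 1.25 by the study, lay at the study's cut of 1.25. The study followed up mir-155 and mir-196a. It described these as low in osteoblasts and bone marrow cells and as linked to osteoclast suppression in earlier reports. For mir-148b, at 1842.9 ± 268.1 (SD, n = 2) and 2211.8 ± 18.7 (SD, n = 2), edgeR's quasi-likelihood test gave a log2 fold change of 0.15 (standard error 0.13) at an adjusted p = 0.434, and the interval of the fold change ran from 0.933 to 1.31. When the second Myo-EV library, the higher of the 2 for both members, was left out, the spread came from the FFSS-Myo-EV pair alone. In that fit the adjusted p in edgeR was 0.00132 for mir-152, at a log2 fold change of 0.43, and 0.00702 for mir-148b, at 0.34. Over all 14 alternatives the adjusted p ranged up to 0.721 and 0.851, respectively. The differences between the fold changes of the members were not tested.

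**Figure D5:**
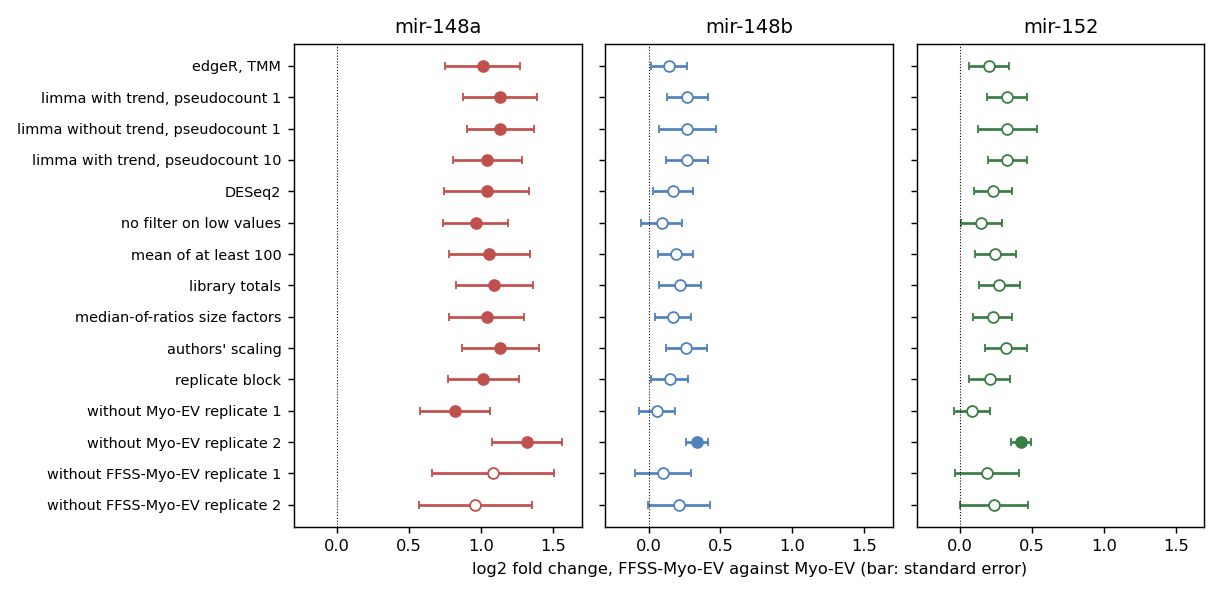
Log2 fold change of FFSS-Myo-EVs against Myo-EVs for mir-148a, mir-148b and mir-152 in edgeR with TMM (top row) and under 14 alternatives, with the standard error as bars. Filled points have an adjusted p below 0.05. The points of mir-148a lie between 0.82 and 1.32 and 12 of the 14 alternatives are filled, while mir-148b and mir-152 are filled only without the second Myo-EV library.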

How the data were processed

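Small RNA of the 6 libraries was sequenced by the authors. Their counts come from CLC Genomics Workbench, in which identical reads were collapsed and then annotated with miRBase. The deposited table gives, for each precursor entry, a count without normalization as well as a normalized expression value. The latter is a signal, which the authors obtained by converting each library to a common total followed by scaling with trimmed means. In the deposited values this scaling is 1 constant per library. The submitters' processing notes name mm10, and positions and sequences were taken from GENCODE M21 and RefSeq on GRCm38. The miRBase release is not given in the sources used here.

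Levels, shares and ratios were computed with Python 3.11.15 and pandas 2.3.3, and exact 95% intervals with scipy 1.17.1. FFSS-Myo-EVs were tested against Myo-EVs on the deposited counts with edgeR 4.0.16 (R 4.3.3), with TMM, the quasi-likelihood test and Benjamini-Hochberg adjustment over the 354 entries with a mean normalized value of at least 10 in the 4 vesicle libraries. Standard errors were taken from the fold change and its F statistic. An exact permutation of 2 against 2 libraries (two-sided) cannot give a p below 0.333 for an entry. Alternatives were limma 3.58.1 on log2 values with a pseudocount of 1 or 10, DESeq2 1.42.0, other filters and scalings, the replicate block and each vesicle library left out. The members, the marker lists and the 16 comparison families were chosen with earlier results of these data known. The rule for named entries took the members and the 3 entries of the most similar profile to each.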

Additional observations from a re-analysis of the deposited data

How the results depend on the processing

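Compared with TMM, the scaling of the authors moved the log2 fold changes of FFSS-Myo-EVs up by 0.12, and it called 54 entries higher and 39 lower where TMM called 43 and 65. The number of entries called, 108 in edgeR, was 68 with limma without a trend and ranged from 44 to 132 when each vesicle library was left out, with 44 and 45 in the absence of either FFSS-Myo-EV library. In such fits the lone library of a group is assumed to vary like the other group. With the replicate block it was 110, and the block changed the call of no member. The deviations of same-numbered libraries correlated at 0.21, but no source states that they belong together. With libraries left out, the log2 fold change ranged from 0.82 to 1.32 for mir-148a, 0.057 to 0.34 for mir-148b and 0.085 to 0.43 for mir-152. Under the 10 other alternatives mir-148a was called in each (adjusted p from 0.000117 to 0.0200), and mir-148b and mir-152 in none. The family's ratio of OB to BM, 4.28, was 3.62 with total-count scaling, 4.59 with TMM and 5.00 with median-of-ratios factors over the 6 libraries. Its ratio of FFSS-Myo-EVs to BM, 0.191, was 0.156, 0.141 and 0.170 in the same order, and that of FFSS-Myo-EVs to OB, 0.0447, was 0.0429, 0.0308 and 0.0339. The ratio of Myo-EVs to BM, 0.154, was 0.124 with TMM. The ratio of Myo-EVs to OB, 0.0359, was 0.0270 with TMM and 0.0292 with median-of-ratios factors. All member and family ratios kept their side of 1 under these scalings. The shares within the family moved by less than the spread between libraries when counts were summed. Leaving out 1 of 2 libraries cannot move a mean by more than that spread and says nothing about the stability of the shares. Counts of 60 to 157 limit the precision of mir-148a in vesicles. The alternatives reuse the same libraries, so they give no independent evidence on the members.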
